A study of Homo sapiens with 10 samples.

Results

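The aryl hydrocarbon receptor, its partner, its repressor and its best-known target genes were followed in lung cancer cells exposed to estrogen and tamoxifen. The genes were AHR, ARNT, AHRR, CYP1A1, CYP1B1 and TIPARP, 6 of the 19775 genes that a probe set naming 1 gene represented. All 15 of their probe sets, of 41091 that name 1 gene, were taken from the array annotation and not by their measured values. The genes themselves were chosen with earlier results of these data known. For each gene the probe set of highest mean intensity led the description. The samples were 10 arrays, each of 1 RNA sample from A549 (lung adenocarcinoma) or HTB-182 (squamous lung carcinoma, H520 in the study's title). Both lines stood for 4 h in charcoal-stripped serum, which lowers steroid hormones, and were then exposed for 3 h. The treatments were 1 µM estradiol plus 10 µM tamoxifen, 1 µM estradiol alone, 1 µM estradiol-BSA plus 10 µM tamoxifen, 1 µM estradiol-BSA alone, and 0.1% ethanol as vehicle. Estradiol-BSA, estradiol coupled to bovine serum albumin, was used to address receptors at the plasma membrane, and tamoxifen, a modulator of estrogen receptors, was used as an inhibitor. Where estradiol and tamoxifen were given together, the sample titles name tamoxifen only, and the source descriptions, which name both compounds, were followed. Tamoxifen alone, albumin alone and a known agonist of the aryl hydrocarbon receptor were not analysed here. Every group of line and treatment was a single array, so a difference between single arrays has no replicate check. With line and treatment as terms, p-values measure the spread left by uneven treatment differences of the lines. That spread may be technical or may hold a response of a single line, which cannot be told apart. A missing call therefore does not show that neither line responded.

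AHR is a ligand-activated transcription factor that waits in the cytosol bound to chaperones. Bound by dioxins, polycyclic hydrocarbons or tryptophan-derived indoles, it enters the nucleus, pairs with ARNT and binds DNA elements built around the core GCGTG. CYP1A1 and CYP1B1, both induced this way, oxidise foreign chemicals in lung epithelium and also hydroxylate estradiol to catechol estrogens. AHRR and TIPARP are induced as well and restrain the receptor, AHRR by competing with it and TIPARP by ADP-ribosylating it. A hydroxylated metabolite of tamoxifen has been reported to bind AHR in other cells, and estradiol can be both a CYP1 substrate and a modulator of AHR signalling. These statements are background and were not measured here.

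Start regions of the receptor's target genes were searched for the core on both strands, since it is the sequence through which AHR and ARNT reach DNA. The RefSeq windows (GRCh38.p14) ran from 250 bases before to 50 bases after a start, and 5 of the 6 genes had at least 1 window. Shown are the CYP1A1 window (chr15:74725479-74725778, minus strand), the first of 2 AHRR windows (chr5:321464-321763, plus strand) and the most upstream of 3 TIPARP windows (chr3:156674340-156674639, plus strand). Each is written 5′ to 3′ along the gene, and capitals mark GCGTG or its reverse complement CACGC.
CYP1A1: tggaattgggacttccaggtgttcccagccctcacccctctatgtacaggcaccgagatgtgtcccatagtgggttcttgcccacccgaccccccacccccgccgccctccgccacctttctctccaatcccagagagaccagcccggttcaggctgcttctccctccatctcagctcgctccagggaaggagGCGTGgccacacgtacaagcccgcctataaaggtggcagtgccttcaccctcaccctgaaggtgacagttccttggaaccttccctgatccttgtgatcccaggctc
AHRR: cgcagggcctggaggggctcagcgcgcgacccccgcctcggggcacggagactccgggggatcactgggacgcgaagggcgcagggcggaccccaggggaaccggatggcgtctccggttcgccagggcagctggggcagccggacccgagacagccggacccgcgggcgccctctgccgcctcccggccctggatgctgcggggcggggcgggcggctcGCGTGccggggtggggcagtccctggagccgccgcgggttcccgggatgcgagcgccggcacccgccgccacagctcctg
TIPARP: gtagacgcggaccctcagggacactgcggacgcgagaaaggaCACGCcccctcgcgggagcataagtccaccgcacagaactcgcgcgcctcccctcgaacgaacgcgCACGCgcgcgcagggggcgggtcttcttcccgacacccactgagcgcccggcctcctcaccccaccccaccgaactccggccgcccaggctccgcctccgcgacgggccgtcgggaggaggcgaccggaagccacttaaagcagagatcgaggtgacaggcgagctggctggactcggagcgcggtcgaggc
The CYP1A1 window held 1 core, 57 bases before the start, and its best-studied response elements are known to lie further upstream than this window reaches. The AHRR window held 1 core, 30 bases before the start, within the longer form TNGCGTG, and the other AHRR window held 2, at 247 and 42 bases before its start. In TIPARP both cores were on the minus strand, 208 and 142 bases before the start, and the other 2 windows of the gene held 0. The AHR window held 1 core, 37 bases after the start, and the ARNT window held 0. Of 35114 windows, 36.5% held at least 1 core on either strand, 12.7% held at least 2 and 5.51% held TNGCGTG, so a match is common and describes the sequence only.

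The genes lie on 6 chromosomes of GRCh38.p14. AHR spans chr7:17298652-17346147, ARNT chr1:150809713-150876599 and AHRR chr5:321714-438285. CYP1A1 spans chr15:74719542-74725528, CYP1B1 chr2:38067509-38076151 and TIPARP chr3:156674590-156706770.

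The arrays had median intensities of 17.5 to 21.5. The A549 vehicle array stood apart: 479 of 23130 tested probe sets read 2-fold or more away from what the rest of its line averaged. The like count was 39 to 73 for the other A549 arrays and 0 to 18 for the HTB-182 arrays. Its part in the differences from vehicle was not tested, and the differences of the leading AHR, CYP1A1, CYP1B1 and TIPARP probe sets from vehicle are given with and without it. Without it, vehicle is the HTB-182 array alone, and the treated A549 arrays are set against it only through the fitted line difference. Such a value holds no difference from vehicle within A549. Lineage markers went only partly with the labels. KRT7, a keratin of glandular epithelium, averaged 3411 in A549 and 18.1 in HTB-182, while NKX2-1, a lung adenocarcinoma factor, was below the filter level in both (17.0 and 17.9). Of the other glandular and alveolar markers, MUC1 averaged 98.8 in A549 and 25.4 in HTB-182, and NAPSA 31.2 and 22.3. SFTPB went the other way, at 27.8 in A549 and 32.2 in HTB-182. SOX2, amplified in many squamous carcinomas, averaged 135 in A549 and 4152 in HTB-182. KRT5, a basal keratin, averaged 26.1 and 22.1 in the same order of lines, and DSG3, a desmosomal cadherin of squamous epithelium, was below the filter level in both (13.5 and 13.4). The squamous markers TP63 and KRT6A had no probe set naming 1 gene and were not read. The 5 markers of blood and endothelial cells summed to 163 to 254 in A549 and 112 to 137 in HTB-182, with 3 and 2 of them above the filter level. CD14, of monocytes, averaged 82.2 in A549 and 10.6 in HTB-182, HBB, a globin, 64.9 and 65.2, and PTPRC, the pan-leukocyte marker, 8.80 and 7.29. Stromal markers summed to 307 to 524 in A549 and 54.1 to 67.1 in HTB-182, mostly from COL1A1, a fibrillar collagen (382 against 20.6). The part of cell make-up in the results was not tested, and in bulk RNA fewer expressing cells and less RNA per cell cannot be told apart.

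CYP1B1 was higher in A549 and CYP1A1 was higher in HTB-182. CYP1B1 averaged 652 ± 93.9 in A549 and 11.8 ± 2.68 in HTB-182 (SD, n = 5 arrays under different treatments in each line), and CYP1A1 averaged 31.8 ± 9.45 in A549 and 139 ± 15.9 in HTB-182. Over all treatments AHR and TIPARP were about 2.1-fold higher in A549, and ARNT was 1.56-fold lower. On the vehicle arrays alone AHR differed by only 0.03 on the log2 scale (187 in A549 and 183 in HTB-182), whereas TIPARP differed by 1.13. The receptor's repressor AHRR was dim in both lines, at 23.8 ± 3.83 in A549 and 12.8 ± 0.868 in HTB-182. These lines differed in much of the transcriptome: 63.8% of the 23130 tested probe sets passed an adjusted p of 0.05, 31.5% higher and 32.3% lower in A549, and 8 of the 10 tested probe sets of these genes did. That share lies near the background and is no result about the genes as a group, so the sizes carry the description. Of all 15 probe sets, 10 showed no overlap between lines, 6 higher and 4 lower in A549, against 37.2% of all probe sets naming 1 gene. These 10 hold several probe sets each of CYP1B1 and ARNT, so this count too is no result about the genes as a group.

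**Figure D1:**
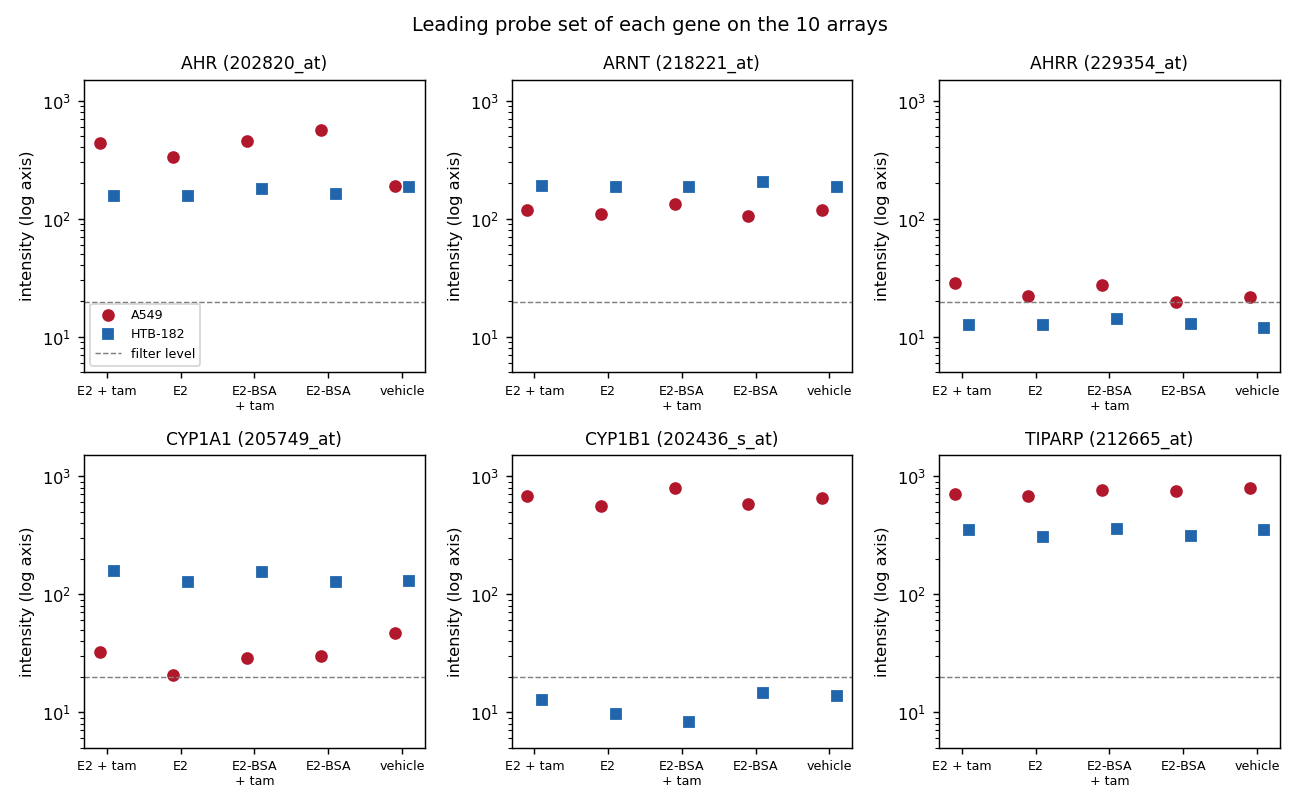
Intensity (log axis) of the leading probe set of each gene on the 10 arrays, by treatment (E2, estradiol; tam, tamoxifen), with A549 as circles and HTB-182 as squares, and the filter level of 19.8 as a dashed line. CYP1B1 lies at 557 to 792 in A549 and 8.29 to 14.5 in HTB-182, CYP1A1 lies higher in HTB-182 on every treatment, and AHR reads 335 to 562 on the treated A549 arrays, 154 to 179 on the treated HTB-182 arrays, and 187 (A549) and 183 (HTB-182) with vehicle.

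Among the receptor and its partner, AHR had intensities of 436 with estradiol plus tamoxifen, 335 with estradiol, 451 with estradiol-BSA plus tamoxifen, 562 with estradiol-BSA and 187 with vehicle in A549. In HTB-182 it read 156, 154, 179, 161 and 183 on the same treatments in that order. The treated A549 arrays were all above every HTB-182 array, while the vehicle arrays of both lines were within 0.03 on the log2 scale. The line difference, A549 minus HTB-182, was 1.09 ± 0.19 (log2 ± SE, 2.13-fold, adjusted p = 0.000437), and 1.35 without the A549 vehicle array. ARNT, the obligate partner, had intensities of 118, 108, 132, 105 and 117 in A549 and of 189, 186, 186, 202 and 184 in HTB-182, without overlap. It was lower in A549 by 1.56-fold (-0.64 ± 0.10, adjusted p = 0.000175).

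The 7 ARNT probe sets did not tell 1 story. Besides the leading one, 231016_s_at was lower in A549 (24.3 to 29.7 against 35.8 to 57.5; -0.51 ± 0.09, adjusted p = 0.000352). Another, 218222_x_at, did not overlap between lines (30.7 to 33.6 in A549 and 36.0 to 39.7 in HTB-182) but differed by only -0.17 ± 0.08 (adjusted p = 0.0911), and 230619_at by 0.07 ± 0.15 (adjusted p = 0.699), with ranges of 44.6 to 93.2 in A549 and 51.6 to 72.3 in HTB-182. The remaining 3 were below the filter level in both lines, with intensities of 2.84 to 13.4. Across the 10 arrays, centred within each line, the 4 tested ARNT probe sets had pairwise Pearson r from -0.36 to -0.05, which describes arrays that share 2 lines and 5 treatments.

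Of the CYP1 enzymes, CYP1A1 had intensities of 32.2, 20.8, 28.9, 30.2 and 46.8 in A549, in the same order from estradiol plus tamoxifen to vehicle, and of 159, 128, 154, 126 and 129.6 in HTB-182. Every HTB-182 array lay above every A549 array, and the difference of -1.72 ± 0.12 was a 3.28-fold lower level in A549 (adjusted p = 2.55e-07). Without the A549 vehicle array it was -1.84. CYP1B1 stood the other way round, with 683, 557, 792, 577 and 652 in A549 and 12.7, 9.68, 8.29, 14.5 and 13.7 in HTB-182. Its difference was 4.58 ± 0.12 (24.0-fold, adjusted p = 5.88e-11), and since the HTB-182 values were below the filter level, the fold on this scale understates the ratio of intensities. CYP1B1 passed the filter only through A549. Both other probe sets that passed differed by 4.11 and 4.43 (adjusted p = 3.65e-10 and 1.36e-09). The fourth, 202434_s_at, was dim in both lines (mean 10.9 in A549 and 10.7 in HTB-182) and showed no such difference.

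Among the feedback genes, TIPARP had intensities of 709.9, 683, 758, 753 and 790.4 in A549 and of 351, 307, 359, 313 and 353 in HTB-182. The lowest A549 array was above the highest HTB-182 array, and the difference was 1.10 ± 0.08 (2.14-fold, adjusted p = 3.88e-07). AHRR had 28.3, 22.1, 27.4, 19.6 and 21.6 in A549 and 12.6, 12.5, 14.2, 12.8 and 11.8 in HTB-182. Its mean lay under the filter level, and in the fit without a filter it was 1.38-fold higher in A549 (0.46 ± 0.07, adjusted p = 0.000163).

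**Figure D2:**
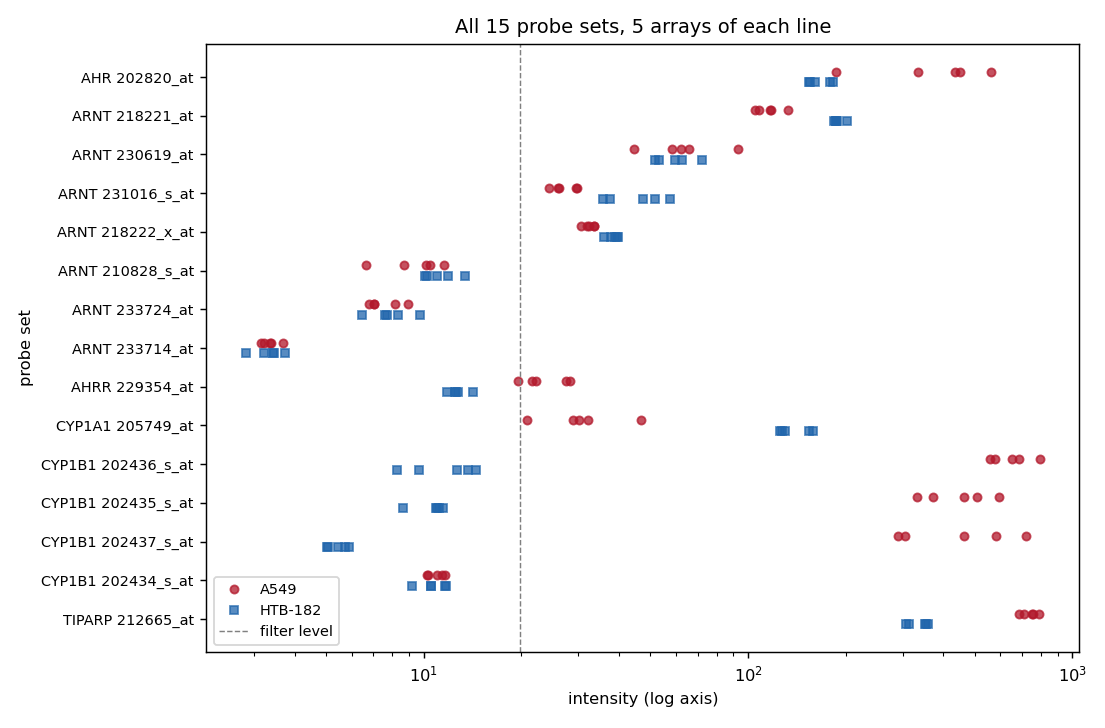
Intensity (log axis) of all 15 probe sets on the 5 arrays of each line, with A549 as circles, HTB-182 as squares and the filter level as a dashed line. The 3 bright CYP1B1 probe sets read 290.4 to 792 in A549 and 5.04 to 14.5 in HTB-182, the fourth averages 10.9 and 10.7, and 5 probe sets have a mean below the filter level.

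Tamoxifen was added to both estrogen forms in both lines, which gave 4 pairs of arrays. CYP1A1, the classical reporter of AHR activity, differed by 0.22 ± 0.14 with tamoxifen (95% interval -0.08 to 0.53), higher in 3 of 4 pairs and without a call (adjusted p = 0.9999). In HTB-182 it read 159 with estradiol plus tamoxifen and 128 with estradiol, and 154 with estradiol-BSA plus tamoxifen and 126 with estradiol-BSA (log2 differences of 0.28 and 0.26). Both HTB-182 tamoxifen arrays were above all 3 others of that line, the vehicle array included. In A549 it read 32.2 with estradiol plus tamoxifen and 20.8 with estradiol, but 28.9 with estradiol-BSA plus tamoxifen and 30.2 with estradiol-BSA (0.39 and -0.04), and the vehicle array at 46.8 was above all of these.

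CYP1B1 read higher with tamoxifen in both A549 pairs by each of its 3 bright probe sets, without a call. The leading one read 683 with estradiol plus tamoxifen and 557 with estradiol, and 792 with estradiol-BSA plus tamoxifen and 577 with estradiol-BSA (0.29 and 0.45). Probe set 202435_s_at read 508 and 332, and 592 and 464, in the same pairs (0.59 and 0.34), and 202437_s_at read 464 and 290.4, and 721 and 583 (0.65 and 0.30). On adding tamoxifen to estradiol in A549, only these last 2 were at least 1.5-fold higher, 2 of 10 tested against 1.66% of all tested probe sets. Both read the same gene and went together over the arrays, centred within each line (Pearson r 0.91). The count therefore describes 1 gene, whose leading probe set was 1.22-fold higher in that pair. The A549 vehicle array read 652, 373 and 304 by the 3 probe sets, so both tamoxifen arrays were above every array without tamoxifen by the first 2 of them but not by 202437_s_at, where the estradiol-BSA array was also higher. In HTB-182 the same probe sets were below the filter level throughout. Over both lines the differences were 0.14 ± 0.14, 0.19 ± 0.15 and 0.26 ± 0.19, all with an adjusted p of 0.9999.

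TIPARP was 0.19 higher with tamoxifen in each HTB-182 pair (351 against 307, and 359 against 313), and the vehicle array there read 353. In A549 it differed by 0.05 (709.9 against 683) and 0.01 (758 against 753), with vehicle at 790.4, and over both lines by 0.11 ± 0.09 (adjusted p = 0.9999). AHRR was higher in 4 of 4 pairs, by 0.22 and 0.29 in A549 and by 0.01 and 0.07 in HTB-182. The A549 values were 28.3 against 22.1 on estradiol and 27.4 against 19.6 on estradiol-BSA, and both tamoxifen arrays were above the vehicle array at 21.6. AHRR differed by 0.14 ± 0.08 in the fit without a filter (unadjusted p = 0.0892, adjusted p = 0.9999).

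AHR itself differed by pair with tamoxifen: 436 against 335 on estradiol but 451 against 562 on estradiol-BSA in A549 (0.36 and -0.31), and 156 against 154 and 179 against 161 in HTB-182 (0.01 and 0.14). Over both lines its difference was 0.05 ± 0.22, and that of ARNT was 0.08 ± 0.11, both with an adjusted p of 0.9999.

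**Figure D3:**
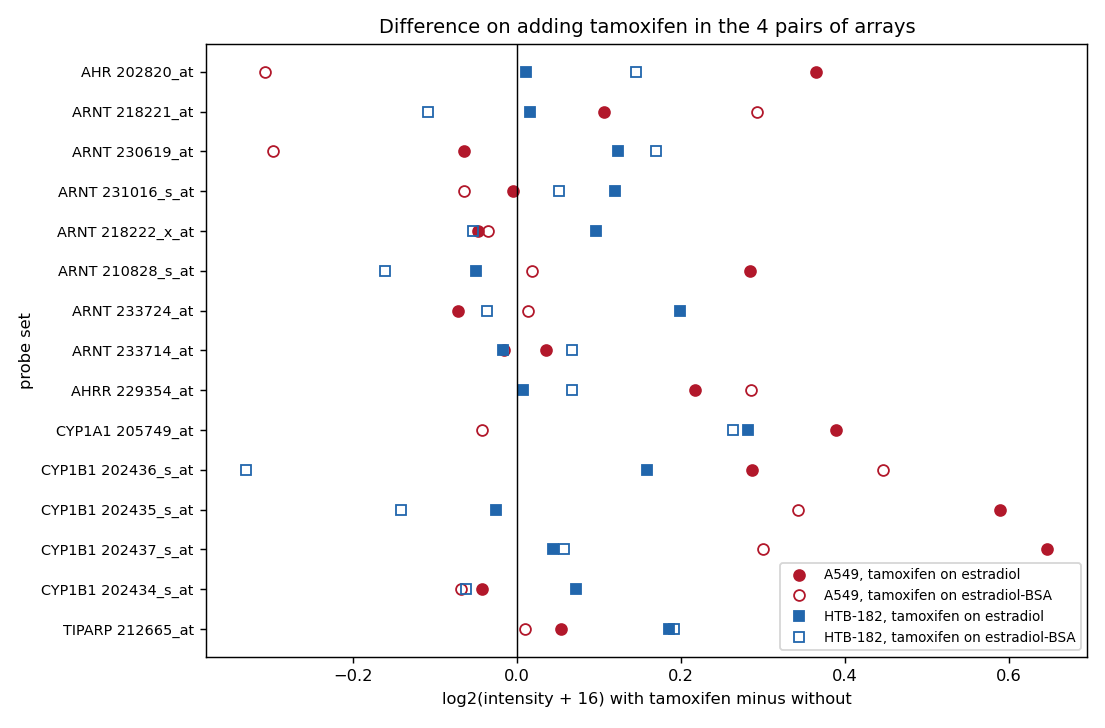
Difference on adding tamoxifen in log2(intensity + 16), with tamoxifen minus without, for all 15 probe sets in the 4 pairs of arrays; circles are A549, squares HTB-182, filled symbols the pairs on estradiol and open symbols those on estradiol-BSA. The 3 bright CYP1B1 probe sets lie at 0.29 to 0.65 in A549, and CYP1A1 lies at 0.26 and 0.28 in HTB-182.

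By limma's moderated test, 0 of the 10 tested probe sets passed for tamoxifen and the background was 0% of 23130, with 391 (1.69%) at an unadjusted p under 0.05, none of them from these genes. Of all 15 probe sets, 3 were higher in every pair (AHRR, CYP1B1 202437_s_at and TIPARP) and 0 were lower in every pair, where 7.22% and 5.43% of all probe sets naming 1 gene were. Both tamoxifen arrays lay above the other 3 of the line for 5 of 15 in A549, against 4.67% of all, and for 2 of 15 in HTB-182, against 13.1%. The 5 in A549 were 2 ARNT probe sets, AHRR and 2 of CYP1B1. Probe sets of 1 gene are not independent, so this count is no result about the genes as a group. Of the ARNT probe sets, 218221_at met the rule narrowly, with 117.7 on estradiol plus tamoxifen and 116.9 on vehicle. The other, 210828_s_at, read only 6.63 to 11.6 in A549, and its mean, like that of AHRR, lay below the filter level. The 2 in HTB-182 were CYP1A1 and CYP1B1 202437_s_at, whose values there ran only from 5.04 to 5.89.

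Whether the lines differed in this was tested with a cell line by tamoxifen term, A549 minus HTB-182. CYP1B1 had 0.42, 0.57 and 0.57 by its 3 bright probe sets, and the term of 202435_s_at was 0.57 ± 0.24 (unadjusted p = 0.0394, adjusted p = 0.984). CYP1A1 had -0.29, TIPARP -0.14, AHR 0.40 and ARNT 0.18. This term also draws on the vehicle arrays. Without the A549 vehicle array it rests on the 4 tamoxifen pairs alone and was -0.05 for AHR, which turned its sign, -0.10 for CYP1A1, -0.16 for TIPARP, 0.25 for ARNT and 0.45, 0.55 and 0.42 for the CYP1B1 probe sets. CYP1B1 lay below the filter level in HTB-182, so these terms set A549 against a line whose signal was too dim to read a change. Of all tested probe sets, 0% were called and 484 (2.09%) had an unadjusted p under 0.05. A further contrast compared tamoxifen on estradiol-BSA with tamoxifen on estradiol. AHR differed by -0.27 ± 0.44 and CYP1A1 by -0.23 ± 0.28, and again 0% of all were called, with 210 (0.908%) at an unadjusted p under 0.05.

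Estradiol was compared with vehicle as a possible receptor ligand. CYP1A1 read 20.8 with estradiol and 46.8 with vehicle in A549, and 128 and 129.6 in HTB-182. The A549 array with estradiol was the lowest of its line and the vehicle array the highest, a 1.71-fold difference (log2 difference -0.77) where 3.45% of tested probe sets were at least 1.5-fold lower, while the HTB-182 arrays differed by -0.02. Over both lines CYP1A1 differed by -0.40 ± 0.20 (adjusted p = 0.899), and by -0.08 without the A549 vehicle array.

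TIPARP differed by -0.20 ± 0.13 (adjusted p = 0.899; -0.18 without the A549 vehicle array), with 683 against 790.4 in A549 and 307 against 353 in HTB-182, and the estradiol array was the lowest of both lines. CYP1B1 read 557 with estradiol and 652 with vehicle in A549, and its difference was -0.22 ± 0.19 (adjusted p = 0.903; -0.27 without that array). AHR ran the other way in A549, with 335 against 187 (1.73-fold; 5.38% of tested probe sets were at least 1.5-fold higher), and read 154 against 183 in HTB-182. Its difference over both lines was 0.28 ± 0.31 (adjusted p = 0.914). It was -0.38 without the A549 vehicle array, a value that holds no A549 difference from vehicle. For estradiol 0 of 10 passed and the background was 0%, with 1117 probe sets (4.83%) at an unadjusted p under 0.05, none of these genes among them. Of all 15 probe sets, 7 were lower and 2 higher with estradiol in both lines, against 37.8% and 14.4% of all probe sets naming 1 gene.

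Estradiol-BSA gave AHR its highest reading, 562 against 187 with vehicle in A549 (2.84-fold, 1.51 on the log2 scale), while HTB-182 read 161 against 183. With CYP1B1 202437_s_at (583 against 304 in A549), AHR was 1 of 2 among 10 tested probe sets at least 1.5-fold higher, against 5.75% of all. The AHR difference over both lines was 0.67 ± 0.31 (adjusted p = 0.658), and 0.0051 without the A549 vehicle array. CYP1A1 read 30.2 against 46.8 in A549 and 126 against 129.6 in HTB-182 (-0.24 ± 0.20, adjusted p = 0.688; 0.07 without the A549 vehicle array). CYP1B1 differed by -0.07 ± 0.19 (adjusted p = 0.910) and TIPARP by -0.12 ± 0.13 (adjusted p = 0.754), and by -0.12 and -0.10 without that array. Here 0% of probe sets were called, with 1570 (6.79%) at an unadjusted p under 0.05, and of the 15 probe sets 4 were higher and 3 lower in both lines, against 16.2% and 29.9% of all.

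**Figure D4:**
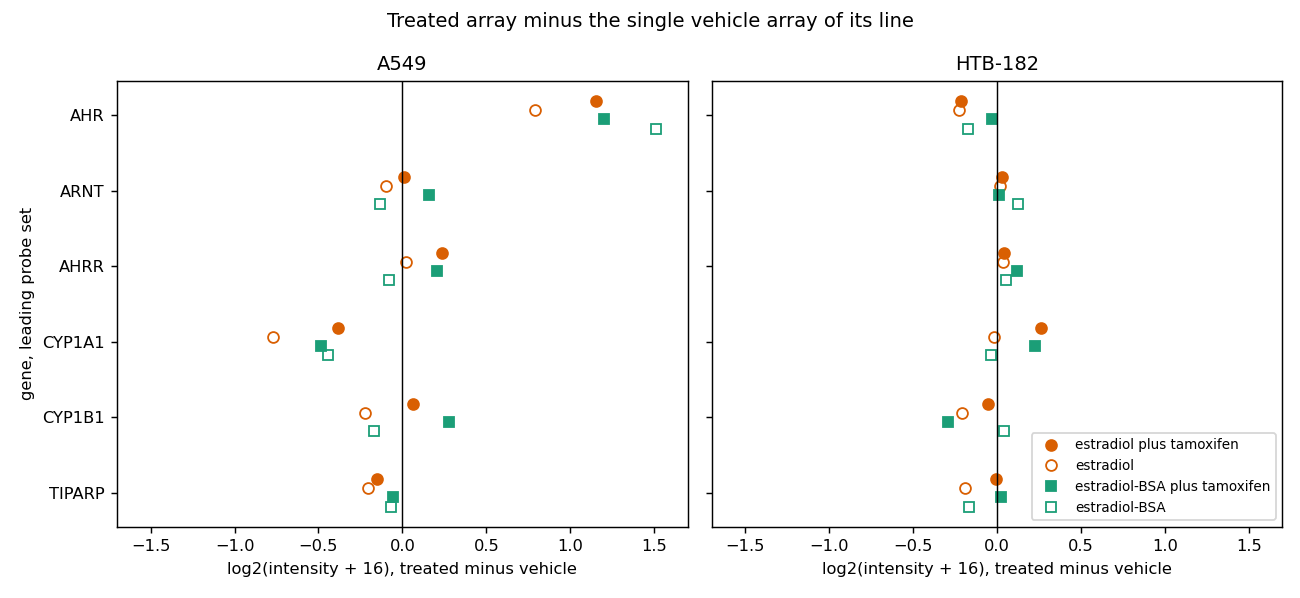
Difference of each treated array from the single vehicle array of its line, in log2(intensity + 16), for the leading probe set of each gene, with filled symbols for tamoxifen and open symbols without. In A549 all 4 AHR points lie at 0.79 to 1.51 and all 4 CYP1A1 points below 0, whereas in HTB-182 the AHR points lie below 0.

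With tamoxifen also present, AHR was again above vehicle in A549 and below it in HTB-182. On estradiol plus tamoxifen, AHR differed from vehicle by 0.47 ± 0.31 (adjusted p = 0.792; 1.15 in A549 and -0.22 in HTB-182) and CYP1A1 by -0.06 ± 0.20 (adjusted p = 0.940; -0.38 and 0.26). Both signs turned, to -0.19 for AHR and 0.25 for CYP1A1, when vehicle was the HTB-182 array alone, without the A549 vehicle array. On estradiol-BSA plus tamoxifen, AHR differed by 0.59 ± 0.31 (adjusted p = 0.571; 1.20 and -0.03) and CYP1A1 by -0.13 ± 0.20 (adjusted p = 0.809; -0.48 and 0.23). Without that array AHR turned to -0.08 and CYP1A1 to 0.18. The CYP1A1 sign therefore differed between the lines in both. CYP1B1 202437_s_at, at 721 against 304 in A549 and 5.89 against 5.43 in HTB-182, differed by 0.62 ± 0.28 with estradiol-BSA plus tamoxifen (unadjusted p = 0.0466, adjusted p = 0.563). Both comparisons had 0% called, with 1079 (4.66%) and 2025 (8.75%) probe sets at an unadjusted p under 0.05. All treatments were set against the same vehicle arrays, so these differences are not independent of each other.

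The position of the vehicle array was itself uneven. In A549 it was below the other 4 arrays for 2 of the 10 tested probe sets, AHR and ARNT 218222_x_at, where 18.1% of all tested were. It was above them for 3, CYP1A1, TIPARP and ARNT 230619_at, where 46.8% were. The HTB-182 vehicle array was above the other 4 for AHR (17.8% of all tested were) and below them for ARNT 218221_at and 230619_at (24% were). The median difference from vehicle over all tested probe sets ran from -0.18 to -0.08 in A549 and from -0.02 to 0.04 in HTB-182.

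The forms of estrogen were also set against each other, estradiol-BSA minus estradiol at the same 1 µM. AHR read 562 against 335 in A549 and 161 against 154 in HTB-182, a difference of 0.39 ± 0.31 with a 95% interval of -0.29 to 1.06 (adjusted p = 0.991). CYP1A1 differed by 0.16 ± 0.20 (interval -0.28 to 0.59), CYP1B1 by 0.15 ± 0.19 (-0.28 to 0.58) and TIPARP by 0.08 ± 0.13 (-0.21 to 0.37). CYP1B1 202437_s_at differed by 0.48 (-0.12 to 1.09), with 583 against 290.4 in A549 and 5.04 against 5.08 in HTB-182. In A549, AHR and CYP1B1 202437_s_at were at least 1.5-fold higher, 2 of 10 against 2.37% of all tested. All 5 intervals held 0, and their width leaves differences of the forms in either direction possible. Of all tested probe sets 0% were called, with 834 (3.61%) at an unadjusted p under 0.05. Of the 15 probe sets, 6 were higher and 1 was lower with estradiol-BSA in both lines, against 28.3% and 20.2% of all.

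Further groups of genes from the same biology were read by their brightest probe set. Their counts between the lines stand beside a background of 31.5% of tested probe sets called higher and 32.3% lower in A549, and are no result about any group. Of 13 genes of the receptor complex and its partners, 11 were tested, and 5 were higher and 3 lower in A549 (median -0.03, against 0.01 for all tested probe sets). The log2 differences were largest for NRIP1, a corepressor of nuclear receptors (2.49, adjusted p = 6.85e-10), and HIF1A, which competes for ARNT (1.18, adjusted p = 4.50e-08). Of 15 other receptor-responsive genes, 10 were tested, and 6 were higher and 1 lower in A549 (median 0.77). ABCG2, a drug efflux pump, differed by 5.37, EREG, an epidermal growth factor receptor ligand, by 4.52, ALDH3A1, an aldehyde dehydrogenase, by 3.70 (5889 against 441) and NQO1, a quinone reductase, by 1.17 (8490 against 3760), while STC2, a secreted glycoprotein, differed by -2.68. ABCG2 and EREG averaged 7.72 and 4.19 in HTB-182, below the filter level, and passed the filter only through A549. The same held for CYP2S1, also called higher, which averaged 42.4 in A549 and 12.8 in HTB-182.

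Of 15 genes that metabolise estradiol or tamoxifen, 6 were tested, and 3 were higher and 1 was lower in A549 (median 0.43). POR, the reductase that feeds electrons to CYP enzymes, averaged 206 in A549 and 66.2 in HTB-182 (1.38), and SULT1A1, a sulfotransferase, differed by -0.62. CYP3A5, also called higher, averaged 32.4 in A549 and 10.8 in HTB-182, and passed the filter only through A549. Of 6 genes of tryptophan breakdown, which make or remove ligands of AHR, 5 were tested and 2 were higher in A549 (median 0.10). These were KYNU, kynureninase, which breaks down the ligand kynurenine, at 5088 against 4.93, and TDO2, tryptophan dioxygenase, which starts kynurenine synthesis, at 53.3 against 9.97. Both lay below the filter level in HTB-182 and passed it only through A549.

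In these groups 0 genes passed in any treatment comparison. With tamoxifen the median log2 difference over all tested probe sets was -0.01. The receptor-responsive genes had a median of 0.03 with 6 of 10 above 0, the receptor complex 0.01 with 7 of 11, estradiol and tamoxifen metabolism 0.03 with 3 of 6, and tryptophan breakdown 0.04 with 4 of 5. With estradiol against vehicle the medians of these groups were -0.04, -0.01, -0.15 and -0.08 in that order, against -0.05 over all, and 0 of 6 metabolism genes were above 0. ABCG2 differed by 0.21 and was higher in 4 of 4 pairs, as was IL4I1, an amino acid oxidase that makes indole ligands (0.14). Of all probe sets naming 1 gene, 7.22% were higher in every pair. ABCG2 lay below the filter level in HTB-182, and IL4I1 was near that level, averaging 19.2 in A549 and 20.7 in HTB-182. EREG in A549 read 583 with estradiol plus tamoxifen, 305 with estradiol, 1009.5 with estradiol-BSA plus tamoxifen, 931 with estradiol-BSA and 98.7 with vehicle, with 3.34 to 4.52 in HTB-182. POR in A549 read 150, 219, 140, 185 and 335 in that order. CYP2S1, a CYP enzyme known to respond to dioxin, read 49.1, 46.5, 41.3, 50.5 and 24.7 in A549. In each of these 3 genes the A549 vehicle array was the outermost, as it was for AHR and CYP1A1.

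The genes most like each member were ranked by Pearson r of log2 values centred within each line over the 10 arrays, among 12975 genes by brightest probe set. AHR went most closely with HIBCH (0.992), ZNF776 (0.987), ZNF92 (0.983) and PEX7 (0.979). CYP1A1 was nearest to EPIC1 (0.974), HAVCR1P1 (0.962), LINC01533 (0.956) and DIO3 (0.951). For CYP1B1 these were PCDH19 (0.929), SALL3 (0.912), TNFRSF10A (0.859) and HERC2P7 (0.854), and for TIPARP they were CRHR1 (0.939), CRH (0.932), LILRA6 (0.914) and MAN2A1 (0.905). ARNT had HERC2P7 (0.904), PPFIA1 (0.890), RASSF5 (0.861) and then CYP1B1 (0.848), the only one of the genes followed here among them. These values describe 10 arrays that share 2 lines, 5 treatments and the A549 vehicle array, and high values arise when so many genes are ranked over few arrays.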

How the data were processed

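The authors deposited 1 table of linear intensity values for 10 Affymetrix arrays. MAS5 is the only program named, per the submitters' processing notes, and for its version and scaling: not given in the sources used here. Groups came from the source descriptions in the labels. Of 54675 probe sets, 41091 name 1 gene. Values were taken as log2(intensity + 16), which understates changes of dim genes, and 23130 probe sets with a mean at or above the median over all (intensity 19.8) were tested, 10 of the 15 described. Differences came from limma 3.58.1 in R 4.3.3, with cell line and treatment as terms (4 residual degrees of freedom) or with an added cell line by tamoxifen term (3), an intensity trend and Benjamini-Hochberg adjustment over all tested probe sets at 0.05. The cell line is the block in every model. On simulated data the steps were tested before use. The named genes are all members, the list genes that passed or were 1.5-fold apart in every pair, otherwise the 2 of largest difference (up to 6 between lines), and the 4 of highest likeness. Examples among the list genes are given. Members and lists were chosen with earlier results of these data known. Alternatives were the pseudocount, the filter, the scaling, the spread estimate, the unit tested and leaving out each array.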

Additional observations from a re-analysis of the deposited data

Results flagged for a closer look

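Among 30 sets of 5 arrays (15 probe sets in 2 lines), 2 had 1 array far from the others by Dixon's ratio above 0.71, where chance gives about 1 in 20. ARNT 218221_at read 202 with estradiol-BSA in HTB-182, where the other 4 arrays read 184 to 189. CYP1B1 202435_s_at read 8.64 with estradiol-BSA plus tamoxifen in HTB-182, where the others read 10.9 to 11.5, all below the filter level.

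In 4 probe sets both A549 pairs moved 1 way with tamoxifen and both HTB-182 pairs the other way. The share of all probe sets that moved so was not counted. This number therefore has no background beside it and is no result about the genes as a group. CYP1B1 202435_s_at differed by a mean of 0.47 in A549 and -0.08 in HTB-182, 0.55 apart, and its cell line by tamoxifen term in limma, which also draws on the vehicle arrays, was 0.57 (adjusted p = 0.984). ARNT 230619_at differed by -0.18 and 0.15 in those lines, -0.33 apart (term -0.53, adjusted p = 0.984), and ARNT 231016_s_at by -0.04 and 0.08, -0.12 apart (term -0.06, adjusted p = 0.987). ARNT 210828_s_at, below the filter level, differed by 0.15 and -0.11, 0.26 apart (term 0.24, adjusted p = 0.994 in the fit without a filter). None of the 4 terms passed. The differences of the pairs themselves were not tested.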

How the results depend on the processing

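Under 20 other settings, 10 of which left out an array, 22 of 39 values for these genes changed neither direction nor call. The line differences of AHR, ARNT, CYP1A1, CYP1B1 and TIPARP passed in every setting that tested them, and CYP1A1 was not tested under the 75th percentile filter. No setting compared the vehicle arrays alone, where AHR read 187 in A549 and 183 in HTB-182. Between the lines, 8 of 10 probe sets were called, against 5 of 5 with 1 brightest probe set per gene and 5 of 5 with gene means. Over all probe sets 14751 were called, against 9141 with the 75th percentile filter, 8523 with the brightest probe sets and 8428 with gene means, where fewer units were tested. With gene means the cell line by tamoxifen term of ARNT turned to -0.039 and CYP1B1 with estradiol-BSA against vehicle turned to 0.14; the cause was not tested.

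Leaving out 1 array mattered most for AHR, which ranged from -0.38 to 0.94 for estradiol, -0.19 to 1.13 for estradiol plus tamoxifen, 0.0051 to 1.33 for estradiol-BSA and -0.076 to 1.25 for estradiol-BSA plus tamoxifen, each against vehicle. The upper ends came without the HTB-182 vehicle array, when vehicle was the A549 array alone. In that setting CYP1A1 for estradiol also had its largest difference (-0.71, in a range of -0.71 to -0.08). These values rest on 1 vehicle array, the one that stood apart from its line, so no call is read from them. AHR also ranged from -0.0035 to 0.78 for estradiol-BSA against estradiol, -0.14 to 0.25 for tamoxifen, -0.049 to 0.79 for tamoxifen by cell line and -0.66 to 0.12 for tamoxifen on estradiol-BSA minus on estradiol. CYP1A1 ranged from -0.37 to 0.25, -0.55 to 0.074 and -0.44 to 0.18 against vehicle for estradiol plus tamoxifen, estradiol-BSA and estradiol-BSA plus tamoxifen, and from -0.00016 to 0.31 for estradiol-BSA against estradiol. CYP1B1 ranged from -0.26 to 0.12 for estradiol-BSA against vehicle, -0.039 to 0.34 for estradiol-BSA against estradiol and -0.0075 to 0.29 for tamoxifen.

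Calls against vehicle among these genes ran from 0 to 2 for estradiol, 0 to 1 for estradiol plus tamoxifen, 0 to 1 for estradiol-BSA and 0 to 2 for estradiol-BSA plus tamoxifen. Over all probe sets they ran from 0 to 1454, 0 to 2150, 0 to 2715 and 0 to 2966, from 0 to 1 for estradiol-BSA against estradiol and from 0 to 7 for tamoxifen by cell line. The labels give no replicate numbers that pair arrays beyond the cell line, which was the block in every model. Single arrays per group limit the precision, and the signal of CYP1B1 in HTB-182, below the filter level, was too dim to read a change.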
